A study of Mus musculus with 31 samples.

Results

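Primary microglia from mice without *Cgas* were compared with *Cgas*+/+ microglia after both had received HT-DNA, DNA of herring testis. The 6 libraries of this comparison, 3 of *Cgas*+/+ and 3 of *Cgas*-/- cells, were taken by their labels from the 31 libraries of the series. All genes that passed a filter on low counts were tested, 13675 of the 54532 listed. The cells came from the cortices of pups 1 to 3 days old, grew in mixed glial culture with granulocyte-macrophage colony-stimulating factor, received HT-DNA at 1 μg/ml 24 h after plating, and were lysed for RNA 6 h later. The *Cgas*-/- mice carried the allele in the germ line, so every cell type of the culture lacked the gene. Vehicle libraries of both genotypes, 3 each, gave the genotype difference at rest. They share no library with the comparison under HT-DNA. The labels do not say whether the libraries of a group came from separate cultures or litters, so the p-values measure the spread between these libraries, and genotype and the litter or culture of origin cannot be told apart.

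cGAS is an enzyme that binds double-stranded DNA in the cytosol and makes the cyclic dinucleotide cGAMP. cGAMP binds STING, which recruits the kinase TBK1, and TBK1 phosphorylates the transcription factor IRF3 so that *Ifnb1*, the gene of interferon-β, is transcribed. Secreted interferon then acts through its receptor, the kinases JAK1 and TYK2 and a complex of STAT and IRF factors on a promoter element called ISRE, and switches on the interferon-stimulated genes, most of which encode antiviral proteins. Microglia, the resident macrophages of the brain, express this pathway.

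Total counts lay between 20463434 and 20880868 in the *Cgas*+/+ HT-DNA libraries and between 18425200 and 24284998 in the *Cgas*-/- HT-DNA libraries. On the first principal component of log-transformed levels, which held 92.1% of the variance, the genotypes lay on opposite sides. One library stood a little apart. *Cgas*-/- HT-DNA library 1 differed from libraries 2 and 3 of its group by a chi-square per degree of freedom of 22.4 and 28.1, against 2.43 to 4.36 for the other pairs within a group. It held 48.4 CPM (counts scaled to an equal normalised library size) of *Rn7sk*, a small nuclear RNA, against 2.01 and 1.96 in the other *Cgas*-/- HT-DNA libraries, and 3032 CPM of *Lars2* against 571 and 335. In all, 10 transcripts lay above 5 CPM there and over 2.8 times above both other libraries. Of these, 7 were called higher in *Cgas*-/- cells, and 0 of the 7 were called by edgeR without this library, where *Lars2* had an adjusted p of 0.234 and *Rn7sk* of 0.936. Leaving the library out changed the numbers of called genes to 1751 lower and 818 higher.

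*Cgas* itself, listed in the deposited table under its former symbol *Mb21d1*, had 39.5, 39.1 and 44.4 CPM in the *Cgas*+/+ HT-DNA libraries and 3.76, 3.93 and 4.18 CPM in the *Cgas*-/- HT-DNA libraries. The groups lay far apart, with a log2 fold change of -3.37 ± 0.12 (SE, n = 3 per group, edgeR quasi-likelihood test, adjusted p = 7.22e-20). At rest the levels were 23.2 ± 4.21 CPM and 4.93 ± 0.75 CPM (SD, n = 3). *Cgas* lies on chromosome 9 (GRCm38, chr9:78430526-78443237, minus strand). The library kit reads the 3′ end of transcripts, and the part of the gene that the allele lacks is not given in the sources used here, so the remaining reads do not measure a working enzyme. The pseudogene *Gm8093* on the plus strand, chr9:78427507-78430805, overlaps the end of *Cgas*. Of the 20 annotated genes on each side of *Cgas*, 10 were tested, 0 were called lower and 3 were called higher. Over all tested genes the shares were 11.8% lower and 6.31% higher. The 3 called higher were *Rn7sk*, which was high in 1 library only as given above, its neighbour *C920006O11Rik*, and *Ddx43*. *Ddx43* had a mean of 0.253 CPM in *Cgas*+/+ and 0.840 CPM in *Cgas*-/- cells. At rest *Cd109* and *Gsta4* were past both thresholds as lower, with log2 fold changes of -1.273 and -2.496. *Gm8093* was past both as higher at rest, with 1.705. Under HT-DNA *Cd109* had a log2 fold change of -0.911, inside the fold threshold.

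Under HT-DNA, 1619 genes were lower in *Cgas*-/- than in *Cgas*+/+ cells, 11.8% of those tested, and 863 were higher, 6.31%. A gene was called where the adjusted p was under 0.05 and the log2 fold change beyond 1 in either direction. The falls were larger than the rises. Of the 1619 genes called lower, 414 were lower by more than 3 on the log2 scale and 147 by more than 5. The corresponding numbers among the 863 genes called higher were 31 and 5. In 4344 genes, 31.8% of those tested, every *Cgas*-/- library lay below every *Cgas*+/+ library, and in 4761 genes, 34.8%, every one lay above. Of the genes called lower, 38 had 0 counts in all *Cgas*-/- HT-DNA libraries. The median log2 fold change of all tested genes was 0.045.

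**Figure D1:**
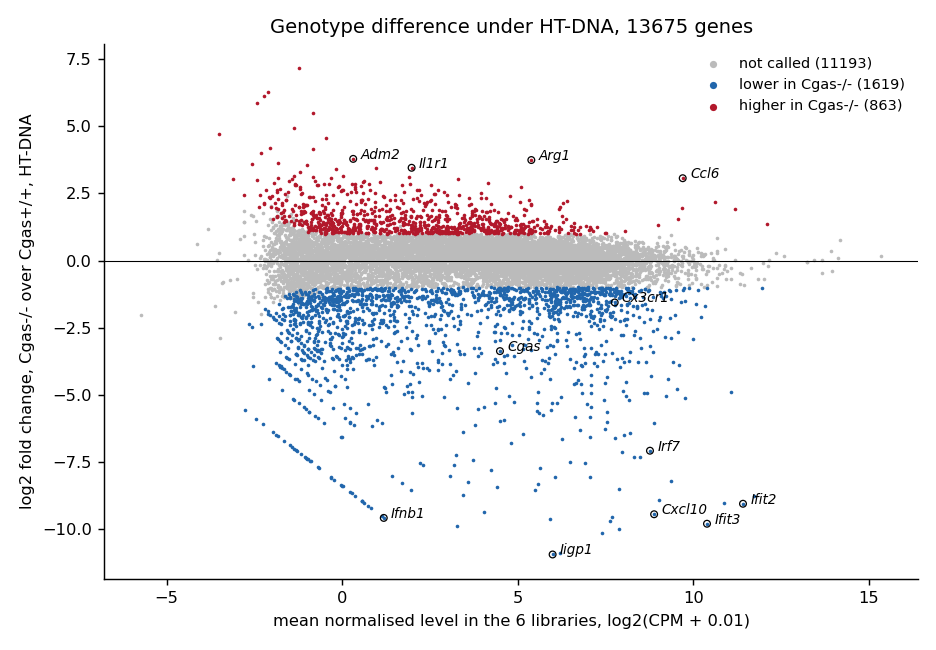
Each point is 1 of the 13675 tested genes, with its mean level in the 6 HT-DNA libraries (x axis, log2 of CPM plus 0.01) and its log2 fold change of Cgas-/- over Cgas+/+ cells (y axis). Blue points are the 1619 genes called lower and red points the 863 called higher; the lower genes reach past -10 and include genes of high level such as Ifit3 and Ifit2, and the straight line of points at the lower left holds genes with 0 counts in every Cgas-/- library.

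The largest changes are given for named genes that were called, whose groups were separate and which had a mean of 50 counts or more in the group with more reads. Predicted genes, RIKEN clones, pseudogenes and genes without a symbol were left out. Most of the 15 largest falls under this rule were interferon-stimulated genes. *Ifit3*, which encodes an RNA-binding antiviral protein, had 2524, 2762 and 2740 CPM in the *Cgas*+/+ libraries and 1.70, 5.26 and 1.80 CPM in the *Cgas*-/- libraries, a log2 fold change of -9.79 ± 0.28 (SE, edgeR adjusted p = 1.29e-21). *Ifit2*, of the same family, had 5232, 5617 and 5468 CPM against 7.15, 15.4 and 7.82 CPM, a log2 fold change of -9.04 ± 0.27 (edgeR adjusted p = 3.26e-21). Their relatives *Ifit3b* and *Ifit1bl1* had log2 fold changes of -10 and -10.13. *Ifit3b* had 460, 446 and 518 CPM against 0.212, 0.642 and 0.460 CPM. *Ifit1bl1* had 319, 346 and 345 CPM against 0.265, 0.441 and 0.167 CPM. These genes have near-identical relatives on chromosome 19, among which the counting could have split reads.

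The transcript of interferon-β was itself absent from the counts of *Cgas*-/- cells. *Ifnb1* had 71, 96 and 83 counts in the *Cgas*+/+ HT-DNA libraries, which is 3.86, 5.17 and 4.53 CPM, and 0 counts in each *Cgas*-/- HT-DNA library. Measured against a floor of 3 counts per library it was at least 33.5-fold higher in *Cgas*+/+ cells (edgeR adjusted p = 1.01e-08). At rest it had 0.443, 0 and 0.162 CPM in *Cgas*+/+ and 0 counts in *Cgas*-/- libraries. It was the only one of 19 genes of type I and type III interferons on the list to pass the filter on low counts. *Klrk1*, the gene of the activating receptor NKG2D, had 4.29, 4.25 and 4.48 CPM against 0 counts and was at least 32.2-fold higher in *Cgas*+/+ cells. *Cyp2c69*, of the cytochrome P450 family, had 2.44, 3.61 and 3.93 CPM against 0 counts, at least 24.7-fold.

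Among the chemokines, *Cxcl10*, a ligand of the receptor CXCR3 that attracts T cells, had 841, 1002 and 982 CPM in *Cgas*+/+ and 0.795, 2.37 and 0.752 CPM in *Cgas*-/- cells, a log2 fold change of -9.43 ± 0.33 (edgeR adjusted p = 5.53e-20). *Cxcl9*, a second ligand of CXCR3, had 3.37, 3.50 and 3.66 CPM against 0 counts in every *Cgas*-/- HT-DNA library and was at least 26.0-fold higher in *Cgas*+/+ cells. *Gbp5*, a guanylate-binding protein that acts on vacuoles of pathogens and on inflammasomes, had 365, 431 and 396 CPM against 0.424, 0.562 and 0.418 CPM. *Iigp1*, an immunity-related GTPase, had 118, 138 and 125 CPM against 0, 0.120 and 0.0418 CPM. The *Cgas*-/- value rests on 4 counts in all, and the ratio of 2150 has an exact 95% interval of 840 to 7900 that covers counting error only.

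Also among the 15 largest falls were *Ifi208*, *Ifi213*, *Ifi205* and *Ifi44*. *Ifi208*, *Ifi213* and *Ifi205* encode PYHIN proteins, a family on chromosome 1 whose members can bind DNA. *Ifi208* had 136, 154 and 154 CPM against 0, 0.120 and 0.0836 CPM, a ratio of 2000 with a counting interval of 858 to 6170. *Ifi213* had 109, 123 and 132 CPM against 0.424, 0.0401 and 0.0418 CPM, and *Ifi205* had 362, 447 and 421 CPM against 0.424, 0.883 and 0.293 CPM. *Ifi44*, an interferon-induced gene, had 27.87, 34.90 and 35.99 CPM, and 1 count in each *Cgas*-/- library, a ratio of 743 (254 to 3610). In none of these 15 genes did the groups overlap, which the rule for choosing them required.

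**Figure D2:**
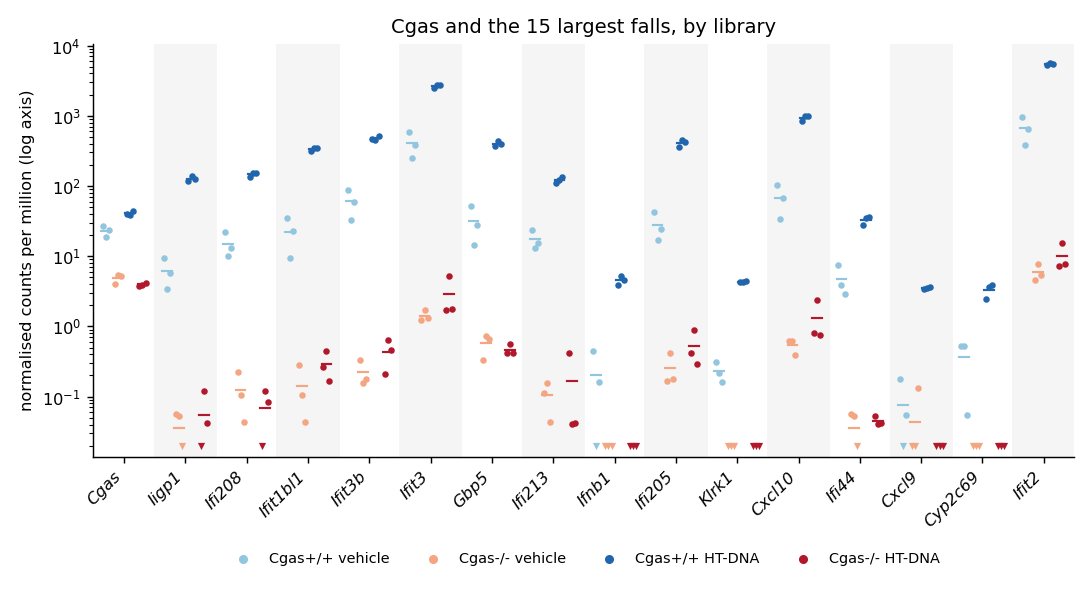
Normalised CPM (y axis, log scale) of Cgas and of the 15 genes that fell most under the rule for named genes, in 3 libraries per group. Points are libraries, bars are group means, and triangles at the bottom mark libraries with 0 counts. The Cgas+/+ HT-DNA libraries lie highest for each gene, the Cgas+/+ vehicle libraries lie between them and the Cgas-/- libraries for most genes, and the Cgas-/- vehicle and HT-DNA libraries lie near each other.

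The promoters of these genes were searched for 3 motifs that the factors of this pathway bind. They were the ISRE core GAAANNGAAA, the GAS core TTCNNNGAA and the kappaB core GGGNNTTTCC, read on both strands, and an ISRE core can overlap the other motifs. The window ran from 250 bases before to 50 bases after the transcription start as RefSeq lists it in GRCm38.p6, and 14 of the 15 largest falls had an entry. Of these, 8 held at least 1 ISRE core. Promoters of 4 of them and that of *Ifnb1* follow, in lower case with ISRE cores in capitals on the strand printed. They are shown because the first 4 belong to genes with the largest falls and the last to the interferon gene itself.
*Ifi208* (chr1:173673415-173673714, plus strand): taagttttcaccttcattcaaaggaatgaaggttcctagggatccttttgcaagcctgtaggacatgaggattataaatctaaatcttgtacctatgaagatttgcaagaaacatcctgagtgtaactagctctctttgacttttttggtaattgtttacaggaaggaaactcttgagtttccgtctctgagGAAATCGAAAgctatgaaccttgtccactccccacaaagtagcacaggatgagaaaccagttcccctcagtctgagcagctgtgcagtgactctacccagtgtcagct
*Ifit1bl1* (chr19:34601919-34602218, minus strand): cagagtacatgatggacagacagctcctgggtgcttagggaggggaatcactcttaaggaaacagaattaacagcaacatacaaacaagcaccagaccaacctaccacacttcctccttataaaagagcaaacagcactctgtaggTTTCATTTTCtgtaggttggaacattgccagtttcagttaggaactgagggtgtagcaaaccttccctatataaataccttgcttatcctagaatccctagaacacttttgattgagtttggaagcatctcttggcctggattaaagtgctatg
*Ifit3b* (chr19:34607707-34608006, plus strand): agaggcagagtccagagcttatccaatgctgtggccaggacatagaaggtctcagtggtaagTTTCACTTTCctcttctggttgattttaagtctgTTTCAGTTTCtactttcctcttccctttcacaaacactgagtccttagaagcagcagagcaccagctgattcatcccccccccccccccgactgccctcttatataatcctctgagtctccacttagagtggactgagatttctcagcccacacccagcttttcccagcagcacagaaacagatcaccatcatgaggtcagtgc
*Ifit3* (chr19:34583279-34583578, plus strand): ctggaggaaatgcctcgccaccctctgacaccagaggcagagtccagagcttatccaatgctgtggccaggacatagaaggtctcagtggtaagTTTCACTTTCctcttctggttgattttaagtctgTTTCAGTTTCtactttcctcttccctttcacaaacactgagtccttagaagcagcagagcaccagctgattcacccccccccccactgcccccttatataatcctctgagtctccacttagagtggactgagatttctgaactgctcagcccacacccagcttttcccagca
*Ifnb1* (chr4:88522745-88523044, minus strand): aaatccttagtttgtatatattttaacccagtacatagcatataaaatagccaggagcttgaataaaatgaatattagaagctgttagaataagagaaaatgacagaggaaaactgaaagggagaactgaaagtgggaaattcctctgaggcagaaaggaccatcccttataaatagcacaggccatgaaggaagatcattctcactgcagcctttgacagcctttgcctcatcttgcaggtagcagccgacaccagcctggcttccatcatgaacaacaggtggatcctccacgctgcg
The promoters of *Ifit3* and *Ifit3b* held 2 ISRE cores each, inside an identical stretch of 169 bases. No ISRE core in these exact letters was present in the window of *Ifnb1*.

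Among the genes called lower that had a promoter in the reference (1136 of 1619), 11.4% held an ISRE core, against 3.05% of the genes called higher (622 of 863 with a promoter), 4.01% of all tested genes (10137 of 13675 with a promoter) and 3.99% of all promoters. With the stricter motif AGTTTCNNTTTC, or its reverse complement, the shares were 3.35% of the lower, 0.161% of the higher and 0.493% of all tested genes, and 0.303% of all promoters. Among the genes called lower, the ISRE core was present in 14.1% of those whose genotype difference was lower under HT-DNA than at rest and in 7.58% of those for which that test was not passed. The second class holds genes with almost no *Cgas*-/- counts, such as *Ifi208*, *Ifit1bl1* and *Ifit3b* (edgeR interaction adjusted p = 0.0992, 0.318 and 0.397). In such genes the interaction is poorly fixed, so the 2 shares do not separate differences tied to HT-DNA from those at rest. The GAS core was held by 9.24% of the lower, 9.00% of the higher and 8.26% of all tested genes, and by 9.55% of all promoters. The kappaB core was held by 2.38%, 0.804% and 2.04% respectively, and by 1.89% of all promoters. These shares are descriptions, since a match of letters is not a measured binding site.

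Beyond the largest changes, the genes of the interferon system were followed from DNA sensing to effector. Counts for each list stand against the shares over all tested genes, 11.8% lower and 6.31% higher. Of 12 tested genes of cGAS-STING signalling, 3 were lower and 0 were higher, with a median log2 fold change of 0.04 against 0.045 over all tested genes. Apart from *Cgas* these were *Samhd1*, a dNTP hydrolase that limits DNA in the cell, and *Tbk1*, the kinase downstream of STING. *Samhd1* had 1229, 1327 and 1297 CPM in *Cgas*+/+ and 93.5, 94.3 and 96.0 CPM in *Cgas*-/- cells. *Tbk1* had 145, 147 and 148 CPM against 64.8, 65.8 and 62.7 CPM, a log2 fold change of -1.19 ± 0.04 (edgeR adjusted p = 1.42e-19). *Tmem173*, the gene of STING, had 43.3, 41.2 and 40.4 CPM against 21.6, 21.2 and 23.9 CPM. Its groups did not overlap, and its log2 fold change of -0.90 ± 0.07 (edgeR adjusted p = 2.93e-12) was just inside the fold threshold. *Irf3*, the factor that TBK1 activates, had 32.5, 35.8 and 33.0 CPM against 39.0, 36.5 and 33.9 CPM and was not called, with a log2 fold change of 0.11 ± 0.06 (edgeR adjusted p = 0.133).

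Of 12 tested receptors, kinases and feedback genes of interferon signalling, 4 were lower and 0 higher. *Usp18*, which removes ISG15 and restrains the interferon receptor, had 445, 538 and 511 CPM against 3.23, 4.97 and 2.47 CPM. *Socs1*, an inhibitor of JAK kinases, had 14.3, 16.6 and 13.4 CPM against 2.12, 1.24 and 1.21 CPM. The kinases *Jak2* and *Tyk2* fell less, with log2 fold changes of -1.79 ± 0.06 and -1.22 ± 0.04. The receptor subunit *Ifnar1* (208, 212 and 211 CPM against 163, 149 and 156 CPM) and the kinase *Jak1* (259, 260 and 258 CPM against 233, 235 and 240 CPM) were not called. The negative regulator *Usp18* had the largest fold of this list, and the receptor chain and *Jak1* differed by less than 1 log2 unit.

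Of 13 tested STAT and IRF genes, 7 were lower and 1 was higher. *Irf7*, which amplifies the transcription of interferon genes, had 778, 905 and 904 CPM in *Cgas*+/+ and 3.92, 7.74 and 7.11 CPM in *Cgas*-/- cells, a log2 fold change of -7.07 ± 0.16 (edgeR adjusted p = 9.25e-24). *Stat2* had 776, 809 and 794 CPM against 23.9, 27.5 and 26.9 CPM. *Irf9*, which binds DNA in a complex with *Stat2*, had means of 90.4 and 31.7 CPM. *Irf1* fell with a log2 fold change of -2.96 ± 0.11, and *Irf2* and *Irf5* were also called lower. *Irf4* was higher at a low level, with means of 0.308 CPM in *Cgas*+/+ and 0.715 CPM in *Cgas*-/- cells, and its call was lost with DESeq2 (adjusted p = 0.0562). *Irf8*, *Stat3* and *Stat6* had log2 fold changes of -0.37, -0.57 and -0.18 and were not called.

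The antiviral effectors were lower almost throughout. Of 50 tested genes on that list, 47 were lower and 0 higher, with a median log2 fold change of -4.67. The summed level of the list lay between 37580 and 40190 CPM in the *Cgas*+/+ HT-DNA libraries, between 1669 and 1778 CPM in the *Cgas*-/- HT-DNA libraries, between 6816 and 11280 CPM in *Cgas*+/+ vehicle and between 1532 and 1676 CPM in *Cgas*-/- vehicle libraries. The 3 exceptions were *Zc3hav1*, *Ifitm2* and *Ifitm6*. *Zc3hav1*, which binds CpG-rich viral RNA, had 444, 447 and 437 CPM against 248, 253 and 255 CPM, a fold within the threshold. *Ifitm2*, a membrane protein that blocks viral entry, had 16.02, 20.57 and 16.44 CPM against 23.4, 26.4 and 27.6 CPM. Within the *Cgas*-/- HT-DNA group, library 2 was the highest of the 3 in 30 of the 50 effectors. Among them were *Ifit3* and *Ifit2*, at levels that stayed below the *Cgas*+/+ vehicle mean in those genes. Within the *Cgas*+/+ HT-DNA group, library 2 was the highest in 26 of the 50 and library 3 in 21. The corresponding shares over all tested genes were not measured.

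Of 23 tested nucleic acid sensors, 19 were lower and 0 higher, with a median of -4.91. They included *Ddx58* and *Ifih1*, which sense RNA, *Aim2* and *Zbp1*, which sense DNA or RNA of unusual form, and the PYHIN genes given above. *Zbp1*, a sensor of Z-form nucleic acid that can trigger necroptosis, had 238, 270 and 281 CPM against 1.75, 3.77 and 2.67 CPM. *Mavs*, the adaptor of the RNA sensors, had 37.6, 42.7 and 36.4 CPM against 29.9, 33.7 and 32.7 CPM and was not called, and the endosomal sensor *Tlr13* (log2 fold change -0.63) and the helicase *Dhx36* (0.10) were not called either. All 16 tested GBP and IRG GTPases were lower, with a median of -5.81. *Tgtp2*, an IRG, had 19.2, 22.2 and 22.8 CPM against 0, 0 and 0.125 CPM, a ratio of 483 (165 to 2350) on 3 counts. *Gbp4* had 32.3, 40.6 and 38.7 CPM against 0, 0.161 and 0.293 CPM. Several genes of these families are near-identical copies, so the split of reads among them is uncertain.

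**Figure D3:**
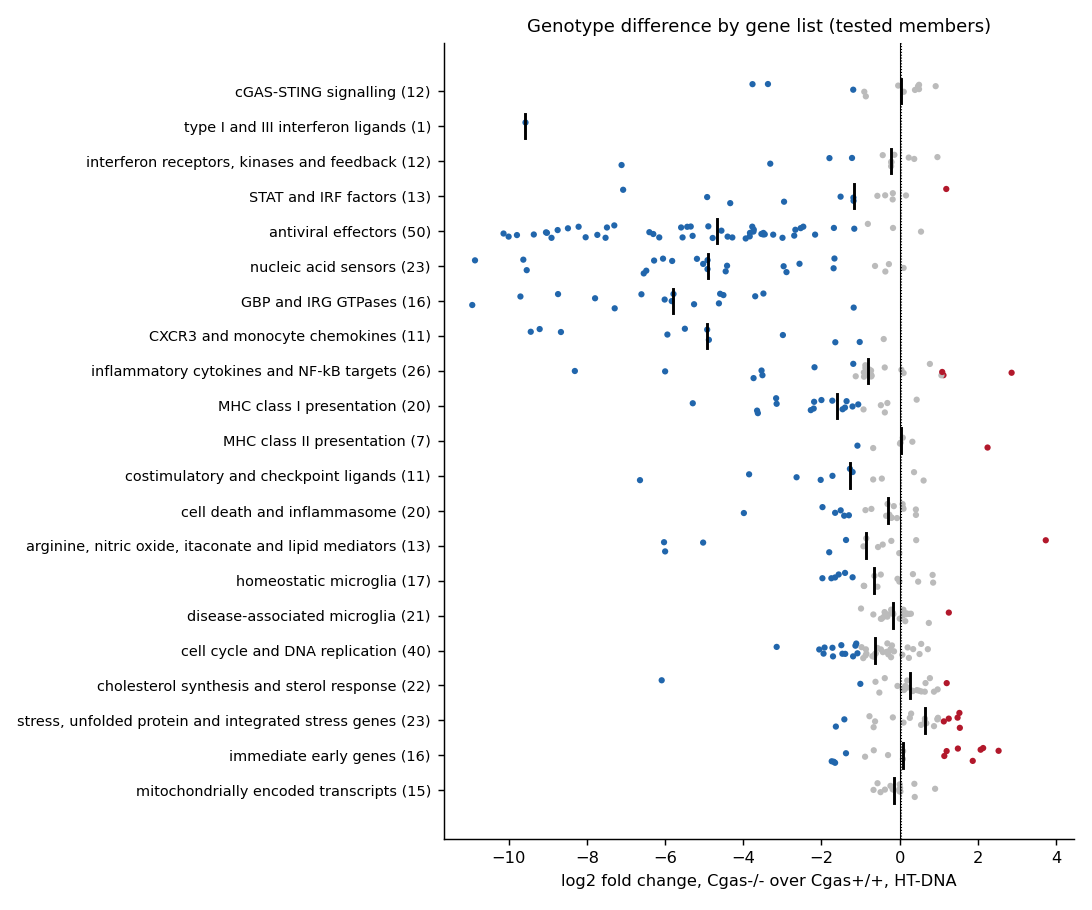
Log2 fold change of Cgas-/- over Cgas+/+ cells under HT-DNA (x axis) for the tested members of each gene list (rows, number tested in parentheses). Blue points were called lower, red points higher and grey points neither. Black bars are list medians and the dotted line is the median of all tested genes. The effectors, sensors, GTPases and chemokines of the interferon system lie far to the left, and the immediate early and stress lists spread to both sides.

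Of 11 tested chemokines that act on CXCR3 or on monocytes, 10 were lower and 0 higher, with a median of -4.92, or -4.70 with genes at 0 counts set to their lower bound. *Ccl5*, which attracts T cells and monocytes, had 40.8, 51.9 and 49.9 CPM against 1.007, 1.003 and 0.334 CPM. *Cxcl11*, the remaining ligand of CXCR3, had 1.47, 2.69 and 3.06 CPM against 0 counts, at least 17.8-fold. *Ccl9* had 279, 287 and 308 CPM against 212, 238 and 210 CPM and was not called.

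The inflammatory cytokines and NF-kB targets were split. Of 26 tested, 7 were lower and 3 higher, with a median of -0.80. *Tnfsf10*, the death ligand TRAIL, had 96.1, 94.8 and 95.2 CPM in *Cgas*+/+ and 0.424, 0.241 and 0.251 CPM in *Cgas*-/- cells, a log2 fold change of -8.31 ± 0.30 (edgeR adjusted p = 1.72e-19). *Il18*, an inflammasome cytokine, had 24.4, 27.7 and 29 CPM against 2.28, 2.41 and 2.30 CPM, and *Il27* had 5.59, 7.27 and 5.57 CPM against 0.318, 0.441 and 0.585 CPM. *Tnf* had 97.5, 109 and 106 CPM against 40.6, 49.8 and 46.6 CPM. *Nfkb1*, *Tnfaip3* and *Nfkbia*, targets and regulators of NF-kB, had log2 fold changes of -0.73, -0.73 and -0.78, inside the fold threshold. The 3 genes called higher were *Il1a* (log2 fold change 1.12), *Cxcl2* (1.09) and *Cxcl3* (2.87). *Il1b* had 1.14, 0.754 and 2.02 CPM against 1.59, 2.09 and 2.93 CPM, and *Il6* had 0.272, 0.592 and 0.874 CPM against 0.477, 0.241 and 0.251 CPM. For both genes the groups overlapped and neither was called.

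Of 20 tested MHC class I presentation genes, 15 were lower and 0 higher, with a median of -1.59. *Nlrc5*, the transactivator of class I genes, had 416, 428 and 419 CPM against 38.0, 31.2 and 32.2 CPM. *Tap1*, a subunit of the peptide transporter, had 439, 485 and 463 CPM against 39.1, 34.9 and 38.7 CPM. The classical heavy chains and the light chain differed less. *H2-K1* had a log2 fold change of -0.38, *H2-D1* of -0.31 and *B2m* of -0.92, and these genes were not called. Class I heavy chains are close relatives, so reads may be split among them. Of 7 tested class II genes, *Cd74* was lower and *H2-Ab1* was higher, 14.3% each, against 11.8% and 6.31% of all tested genes. *H2-Ab1*, a chain of the class II molecule, had 2.66, 1.40 and 1.91 CPM against 10.7, 8.02 and 9.86 CPM, and it also differed at rest (1.53 ± 0.39 CPM and 10.5 ± 1.23 CPM, SD, n = 3). The call of *Cd74* (log2 fold change -1.08 ± 0.15) was lost without *Cgas*-/- HT-DNA library 3, where the value was -0.86.

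Of 11 tested costimulatory and checkpoint ligands, 7 were lower and 0 higher. *Cd274*, the checkpoint ligand PD-L1, had 739, 860 and 796 CPM against 125, 135 and 125 CPM. *Cd40*, a costimulatory receptor, had 31.1, 41.4 and 37.2 CPM against 2.86, 2.21 and 2.59 CPM, while at rest the means were 3.35 and 2.65 CPM. *Cd69* had 132, 166 and 154 CPM against 1.17, 1.48 and 1.80 CPM. *Cd86*, a ligand of CD28, had 104, 122 and 124 CPM against 80.5, 92.5 and 82.4 CPM and was not called. With vehicle its means were 44.4 CPM in *Cgas*+/+ and 84.6 CPM in *Cgas*-/- cells. That is the other direction, by 0.93 on the log2 scale, inside the fold threshold. Of 20 genes of cell death and the inflammasome, 6 were lower (30%, against 11.8% of all tested genes) and 0 higher. They included the pseudokinase *Mlkl*, which carries out necroptosis, with 63.2, 75.2 and 74.1 CPM against 4.72, 5.18 and 3.55 CPM, *Casp4* and *Casp1*.

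Enzymes of arginine, nitric oxide and itaconate metabolism moved in opposite directions. Of 13 tested, 5 were lower and 1 higher. *Acod1*, which makes itaconate, had 1074, 1222 and 1204 CPM in *Cgas*+/+ and 34.4, 36.7 and 36.3 CPM in *Cgas*-/- cells, a log2 fold change of -5.03 ± 0.15 (edgeR adjusted p = 1.38e-21). *Nos2*, the inducible nitric oxide synthase, had 2.34, 1.94 and 2.51 CPM against 0.0530, 0.0401 and 0 CPM. *Arg1*, arginase, which uses the same substrate, had 4.83, 6.68 and 5.90 CPM against 84.8, 73.9 and 74.5 CPM, a log2 fold change of 3.74 ± 0.11 (edgeR adjusted p = 1.91e-21). *Arg1* was the only gene of this list called higher. At rest it had 1.49 ± 0.09 CPM in *Cgas*+/+ and 90.5 ± 7.89 CPM in *Cgas*-/- cells (SD, n = 3), so the ratio between genotypes was smaller under HT-DNA than at rest, by 2.17 on the log2 scale (edgeR adjusted p of the difference = 6.98e-09).

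By the same rule, the 15 largest rises were those of a mixed set of genes at mostly low levels, led by *Adm2* and *Arg1*. All but *Cxcl3*, *Atg9b* and *Ednrb* were also called higher at rest. With vehicle, *Adm2* had means of 0.306 CPM in *Cgas*+/+ and 2.72 CPM in *Cgas*-/- cells, and *Rnase2a* of 0.800 and 7.25 CPM. Among all genes called higher, 10 exceeded 4 on the log2 scale, and all of these had a mean under 50 counts. *Ccl6*, a chemokine of the CC family, had the highest level of the 15, with 174, 174 and 183 CPM in *Cgas*+/+ and 1460, 1543 and 1439 CPM in *Cgas*-/- cells, a log2 fold change of 3.06 ± 0.06 (edgeR adjusted p = 7.81e-25). *Dab2ip*, a Ras GTPase-activating protein, had 4.35, 4.31 and 4.10 CPM against 30.4, 32.4 and 31.4 CPM. *Il1r1*, the receptor of interleukin-1, had 0.978, 0.323 and 0.655 CPM against 7.37, 5.90 and 8.32 CPM. *Adm2*, a peptide of the adrenomedullin family, had 0.217, 0.215 and 0.0546 CPM against 1.86, 2.25 and 2.8 CPM, a log2 fold change of 3.78 ± 0.40 that rests on few *Cgas*+/+ reads. *Cxcl3*, a neutrophil-attracting chemokine, had 0.435, 0.485 and 0.273 CPM against 3.76, 2.29 and 2.88 CPM. *Ednrb*, the endothelin receptor B, had 0.978, 0.754 and 1.09 CPM against 6.09, 7.70 and 6.35 CPM. *Ptpn14*, *Rnase2a*, *Relt*, *Gpx7*, *Spns2*, *Akap5*, *Foxd1* and *Atg9b*, with mean levels of 2.24 to 10.2 CPM in *Cgas*-/- cells, made up the rest of the 15, and their log2 fold changes lay between 2.78 and 3.12.

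**Figure D4:**
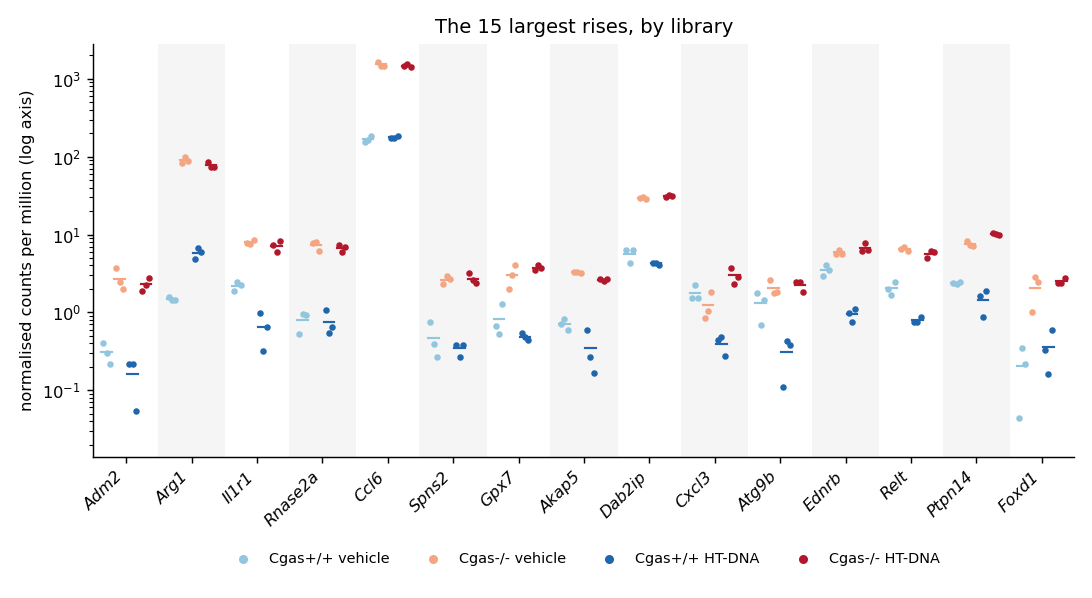
Normalised CPM (y axis, log scale) of the 15 genes that rose most under the rule for named genes in Cgas-/- cells under HT-DNA, in 3 libraries per group. Points are libraries and bars are group means. For Ccl6, Arg1, Rnase2a and Dab2ip the vehicle libraries of the genotypes lie apart as the HT-DNA libraries do, whereas for Cxcl3 the vehicle libraries of the genotypes overlap.

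The immediate early and stress genes were the lists with the most rises. Of 16 tested immediate early genes, 7 were higher and 4 lower, with a median of 0.09. At rest 6 of these genes were higher and 0 lower, with a median of 0.67. *Egr2* had 30.9, 26.6 and 29.1 CPM in *Cgas*+/+ and 121, 129 and 130 CPM in *Cgas*-/- cells, *Egr1* had 17.3, 15.6 and 15.2 CPM against 56.9, 69.0 and 76.0 CPM, and the Krüppel-like factor *Klf2* had 8.64, 8.29 and 8.96 CPM against 30.1, 31.1 and 33.4 CPM. *Egr2*, *Egr1* and *Klf2* were also called higher at rest, with log2 fold changes of 1.275, 2.357 and 2.139. The immediate early genes called lower under HT-DNA were *Fos*, *Fosb*, *Dusp1* and *Zfp36*. *Junb* did not differ past either threshold, with 305, 337 and 326 CPM against 324, 356 and 350 CPM. Of 23 tested genes of the stress and unfolded protein responses, 5 were higher and 2 lower, with a median of 0.65. At rest 3 were higher, *Trib3* and *Herpud1* among them, and 1 lower, with a median of 0.21. *Trib3*, a target of the factor ATF4, had 38.4, 45.5 and 42.8 CPM against 120, 127 and 121 CPM, and *Herpud1*, which serves degradation at the endoplasmic reticulum, had 21.8, 21.4 and 24.6 CPM against 63.3, 63.9 and 62.5 CPM. *Gadd45a* was higher (log2 fold change 1.53) and *Gadd45b* was lower (-1.63). The chaperone *Hspa5* had 1412, 1479 and 1468 CPM against 1881, 1744 and 1723 CPM and was not called under HT-DNA. With vehicle it was called higher, with means of 739 CPM in *Cgas*+/+ and 1507 CPM in *Cgas*-/- cells. Of 22 tested cholesterol genes, 1 was higher and 2 were lower, shares near those of all tested genes (6.31% and 11.8%). In 13 members every *Cgas*-/- library lay above every *Cgas*+/+ library and in 5 below, with a median log2 fold change of 0.26. The summed level was 4027 to 4082 CPM in *Cgas*+/+ and 2950 to 3059 CPM in *Cgas*-/- cells. Most of it came from *Abca1* (means of 2262 and 1740 CPM) and *Abcg1* (1136 and 566 CPM), so the sum does not stand for the list. *Sqle*, an enzyme of cholesterol synthesis, was higher, and the call of the lower gene *Abcg1* (-1.004) lay at the threshold.

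Of 40 tested genes of the cell cycle and DNA replication, 13 were lower and 0 higher, with a median of -0.64. *Mcm10*, a replication factor, had 12.9, 14.5 and 12.6 CPM against 1.17, 1.56 and 1.71 CPM. *Ccnd1*, the cyclin D1 gene, had 438, 437 and 426 CPM against 110, 118 and 115 CPM. With vehicle its means were 145 and 113 CPM, and it was not called. At rest 19 of the 40 genes were lower and 0 higher, with a median of -0.92. The part that growth of the cultures has in the other differences was not tested. Of 15 mitochondrially encoded transcripts, 0 were called in either direction.

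The identity of the cells was checked with marker genes. All 14 microglial markers were detected in both genotypes. Their summed level lay between 10230 and 10580 CPM in *Cgas*+/+ and between 6550 and 6849 CPM in *Cgas*-/- HT-DNA libraries, and between 10080 and 10180 CPM and between 6645 and 6741 CPM at rest. *Cx3cr1*, the fractalkine receptor, had 343, 311 and 316 CPM against 108, 110 and 111 CPM under HT-DNA, and 359 ± 9.52 and 112 ± 2.62 CPM (SD, n = 3) at rest. *P2ry12*, a purinergic receptor of resting microglia, had 18.3, 19.1 and 18.7 CPM against 4.88, 4.57 and 4.85 CPM under HT-DNA. With vehicle it had 9.39 ± 0.83 and 6.27 ± 1.44 CPM (SD, n = 3) and was not called. Its interaction was -1.38 on the log2 scale (edgeR adjusted p = 5.03e-07). *Tmem119* was not called, with 8.80, 8.83 and 9.99 CPM against 12.9, 13.5 and 12 CPM, and *Sall1*, a factor of microglial identity, had 16.6, 16.6 and 14.8 CPM against 17.7, 15.9 and 14.4 CPM. Of 17 tested homeostatic genes, 6 were lower under HT-DNA (35.3%, against 11.8% of all tested genes) and 0 higher. At rest 3 of the 17 were lower and 0 higher, where 7.35% and 2.63% of all tested genes were. Of 21 tested genes of disease-associated microglia, *Cst7* was higher, with 31.1, 34.9 and 33.7 CPM against 78.5, 83.7 and 76.5 CPM, and the others were not called. That is 4.76% of the list, near the 6.31% of all tested genes called higher. At rest *Cst7* had 24.6 ± 2.87 CPM in *Cgas*+/+ and 77.3 ± 7.45 CPM in *Cgas*-/- cells (SD, n = 3). In bulk libraries fewer cells of a type and less RNA per cell cannot be told apart.

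Markers of other cells were measured too, at summed levels that ran from near 0 to 719 CPM, and many differed between the genotypes. The 5 tested fibroblast and mural markers were all lower, with a summed level between 4.75 and 7.22 CPM in *Cgas*+/+ and between 0.530 and 0.961 CPM in *Cgas*-/- HT-DNA libraries. *Col1a2*, a collagen chain, had 1.63, 1.99 and 0.710 CPM against 0.106, 0 and 0.0418 CPM. Of 7 tested astrocyte markers, 4 were lower and 2 higher, with a sum between 12.9 and 16.3 CPM in *Cgas*+/+ and between 5.42 and 6.27 CPM in *Cgas*-/- libraries. The defining astrocyte marker *Gfap* was near 0, with 0.598, 0.646 and 1.26 CPM against 0.0530, 0.241 and 0.0836 CPM. The 7 tested oligodendrocyte markers summed to between 703 and 719 CPM and between 617 and 629 CPM, most of it from *Cspg4*, which was not called, and 4 of them were lower. Of 5 tested macrophage markers, *Mrc1* and *Ms4a7* were lower and *F13a1* higher, with sums of 472 to 478 CPM and 206 to 225 CPM. Both tested endothelial markers, *Flt1* and *Cdh5*, were lower, and *Flt1* held nearly all of the sums of 275 to 279 CPM and 24.5 to 28.1 CPM. Of 2 tested neutrophil markers *Mmp8* was lower, 1 lymphocyte marker, *Klrb1c*, was higher at 0.754 CPM in the median *Cgas*+/+ and 1.42 CPM in the median *Cgas*-/- library, and the 2 tested neuronal markers were not called. The part of other cells in the results was not tested.

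Transcripts linked to the sex chromosomes differed as well, and the sex of the pups is not given in the sources used here. *Xist*, which is transcribed from the inactive X chromosome, had 575, 508 and 523 CPM in *Cgas*+/+ and 264, 249 and 256 CPM in *Cgas*-/- HT-DNA libraries. The Y-linked gene *Ddx3y* had 28.6, 28.9 and 32.2 CPM against 52.9, 53.0 and 54.5 CPM, and *Eif2s3y* had 24.1, 20.5 and 21.9 CPM against 46.2, 42.8 and 39.6 CPM. The part of sex in the results was not tested.

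Many genotype differences were also present in the vehicle libraries. At rest, 1005 genes were lower in *Cgas*-/- cells, 7.35% of those tested, and 360 were higher, 2.63%. Of the 1619 genes called lower under HT-DNA, 788 were also called lower at rest and 4 were called higher there. Of the 863 called higher, 234 were also called higher at rest and 4 were called lower. The median log2 fold change of the 1619 lower genes was -1.79 under HT-DNA and -1.07 at rest, and that of the 863 higher genes was 1.38 under HT-DNA and 0.61 at rest. The sets were chosen by their values under HT-DNA, which by itself favours medians of smaller size at rest.

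The interferon-stimulated genes were part of this pattern. In vehicle libraries *Ifit3* had 406 ± 168 CPM in *Cgas*+/+ and 1.42 ± 0.26 CPM in *Cgas*-/- cells (SD, n = 3), and *Cxcl10* had 67.8 ± 34.3 CPM and 0.545 ± 0.129 CPM. Of the 50 antiviral effectors, 46 were lower and 1 was higher at rest. *Cgas*-/- levels under HT-DNA lay near those of *Cgas*-/- vehicle cells, with *Ifit2* at 10.1 ± 4.59 CPM under HT-DNA and 5.90 ± 1.64 CPM at rest. The genes with the lowest adjusted p among those called in both comparisons were *Cd180*, *Ms4a6b*, *Oasl2*, *Mmp13*, *Ccl6*, *Oas3*, *Ms4a6c* and *Rtp4*. Of these, *Ccl6* was higher and the other 7 were lower in *Cgas*-/- cells. *Cd180*, a toll-like receptor homologue, had 779, 804 and 784 CPM against 84.8, 91.1 and 86.5 CPM under HT-DNA and 285 ± 26.9 and 90.2 ± 2.74 CPM at rest. *Mmp13*, a collagenase, had 811, 877 and 830 CPM against 80.3, 77.8 and 78.2 CPM. *Oas3*, which makes the activator of RNase L, had 436, 478 and 485 CPM against 0.848, 1.605 and 1.338 CPM.

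The difference between the comparisons was tested as an interaction of genotype and treatment. In 2271 genes, 16.6% of those tested, the log2 fold change between genotypes was lower under HT-DNA than at rest, and in 2377 genes, 17.4%, it was higher, with no minimum size. With a minimum of 1 on the log2 scale these numbers were 558 and 299. When only the compared groups entered the fit they were 2732 and 1873, and without *Cgas*-/- HT-DNA library 1 they were 2540 and 1864. Of the 1619 genes called lower under HT-DNA, 853 had a difference that was lower than at rest, 17 one that was higher, and 749 did not pass the test. Of the 863 called higher, 442 had a difference that was higher than at rest, 11 one that was lower, and 410 did not pass. Both sets were chosen by their difference under HT-DNA, which is also a term of the interaction. Their splits therefore lean toward a larger difference under HT-DNA and are descriptions only.

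Single genes are given here with their difference at rest and under HT-DNA. *Cd40* and *Cd274* had log2 fold changes of -0.33 and -0.35 at rest and of -3.85 and -2.63 under HT-DNA, with an interaction of -3.52 and -2.29 (edgeR adjusted p = 3.28e-10 and 6.45e-14). For *Cxcl9* the vehicle means were 0.0771 and 0.0440 CPM. *Tnf* was higher in *Cgas*-/- cells at rest by 0.53 on the log2 scale, below the fold threshold, and lower by 1.19 under HT-DNA (edgeR adjusted p of the interaction = 2.88e-10). For *Cx3cr1* and *Ccl6* the interaction was 0.12 and -0.12 on the log2 scale, and neither passed (edgeR adjusted p = 0.135 and 0.247). For *Ifit3* it was -1.63 ± 0.60 (SE, edgeR adjusted p = 0.0364). For genes with almost no counts in *Cgas*-/- cells, such as *Ifnb1* (edgeR adjusted p = 0.9998), *Iigp1* (0.346) and *Cxcl9* (0.00135), the interaction has little meaning, since a ratio to a value near 0 is poorly fixed in both comparisons.

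**Figure D5:**
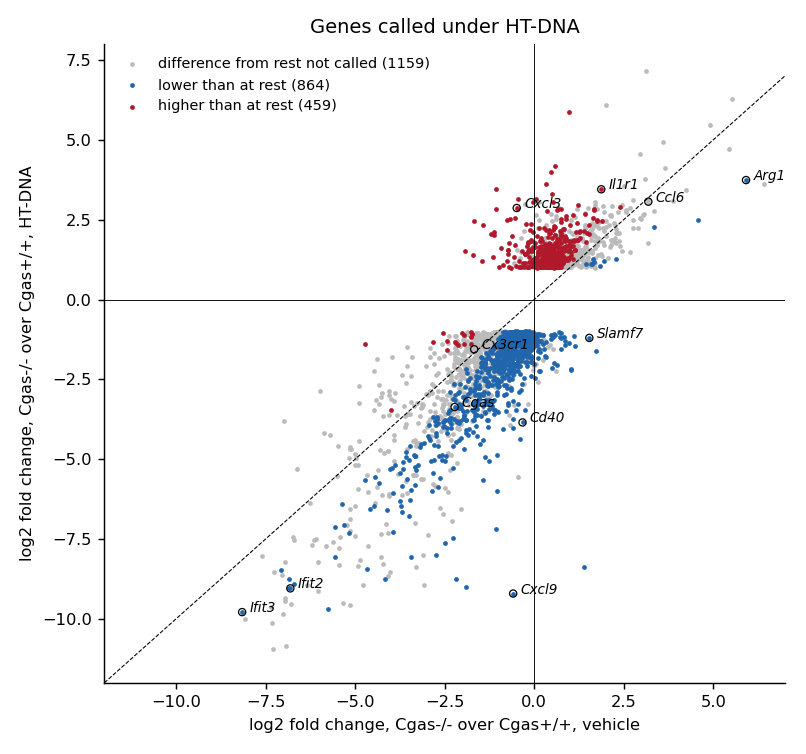
Log2 fold change of Cgas-/- over Cgas+/+ cells with vehicle (x axis) and with HT-DNA (y axis) for the 1619 lower and 863 higher genes called under HT-DNA. The axes use different libraries, and the genes were chosen by their value on the y axis. Points below the dashed line of equal values were lower under HT-DNA than at rest, blue points passed the interaction test in that direction, red points in the other, and grey points did not pass. Cxcl9 and Cd40 lie near 0 on the x axis and far below 0 on the y axis, and Cx3cr1 and Ccl6 lie near the line.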

How the data were processed

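RNA of primary microglia was extracted with a Zymo Quick-RNA kit and made into QuantSeq 3′ FWD libraries, which read transcript ends. The authors deposited whole-number read counts per gene on GRCm38. Their processing notes name edgeR and limma, and the aligner and counter are not given in the sources used here. The deposited table names *Cgas* by its older symbol, which was matched by gene identifier, and 0 columns were left without a sample. A second deposited table, of hippocampal libraries, was not used.

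Counts were tested with edgeR 4.0.16 in R 4.3.3 (limma 3.58.1). All 18 microglial libraries of 6 groups, tau fibril libraries included, entered a single quasi-likelihood fit with TMM scaling after filterByExpr, and p-values were adjusted by the Benjamini-Hochberg method over the 13675 genes kept. A gene was called at an adjusted p under 0.05 and an absolute log2 fold change above 1, and the interaction at the adjusted p alone. CPM were normalised by TMM. Standard errors are the log2 fold change divided by the square root of F. Values against 0 counts use a floor of 3 counts per library. The intervals and this floor take in counting error and no other.

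The comparison, gene lists and rules were chosen with earlier results of these data known. The named genes are *Cgas*, the 15 largest falls and the 15 largest rises, members of each list, and 8 genes called in both conditions. The falls and rises were called genes with separate groups and a mean of 50 counts or more in the group with more reads. From each list came the 4 largest called changes and up to 3 uncalled genes of the highest level. The 8 genes had the lowest adjusted p. Predicted genes (Gm and a number), RIKEN clones, pseudogenes (-ps) and genes without a symbol were left out of the falls, the rises and the 8. *Tmem173*, *Tnf*, *Il1b*, *Il6*, the transcripts of the library that stood apart, the genes called in opposite directions and some further list members were named after their values were seen. Promoters and motifs came from RefSeq entries. Alternatives were RLE scaling, no filter, other fold limits, the replicate number as a block, only the compared groups, each replicate left out, and DESeq2 1.42.0. Values of some list members are not reported here.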

Additional observations from a re-analysis of the deposited data

Results flagged for a closer look

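The genotype difference under HT-DNA differed from that at rest in 2271 genes in which it was lower and in 2377 genes in which it was higher (edgeR interaction of genotype and HT-DNA, adjusted p under 0.05). The genes below were singled out because they were called in opposite directions in the 2 conditions. *Slamf7*, a receptor of immune cells, had 8.99 CPM in *Cgas*+/+ and 26.4 CPM in *Cgas*-/- vehicle cells on average, and 56.3, 55.6 and 54.6 CPM against 22.1, 25.7 and 24.3 CPM under HT-DNA, an interaction of -2.74 on the log2 scale. For *Abcb1a*, a drug efflux pump, it was -2.60, for *Gypc*, glycophorin C, -2.26, and for *Mkx*, a homeobox factor, -3.36. These 4 genes were higher in *Cgas*-/- cells at rest and lower under HT-DNA. The interaction was 3.11 ± 0.61 (SE) for *Vipr1*, a neuropeptide receptor, 4.12 ± 1.10 for *Hacl1*, a peroxisomal lyase, 2.65 ± 0.69 for *Irf4* and 3.45 ± 0.91 for *Mst1*. These 4 were called lower in *Cgas*-/- cells at rest and higher under HT-DNA, all at few reads. *Hacl1* had 1 count in each *Cgas*+/+ HT-DNA library and 4, 5 and 13 counts in the *Cgas*-/- HT-DNA libraries. *Vipr1* had 6, 3 and 5 against 13, 17 and 16 counts, *Irf4* had 5, 3 and 9 against 15, 18 and 15 counts, and *Mst1* had 4, 2 and 5 against 13, 17 and 9 counts. The call of *Irf4* under HT-DNA was lost with DESeq2 (adjusted p = 0.0562), and each of the 4 lost its call under at least 1 alternative. No outlier test was run on single values in groups of 3 libraries.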

How the results depend on the processing

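With no minimum fold change, 4117 genes were lower and 4529 higher under HT-DNA, and 7110 differed at rest. With a minimum difference of 1 on the log2 scale, the interaction was lower in 558 and higher in 299 genes. Leaving out 1 replicate at a time gave 1630 to 1751 lower and 818 to 897 higher genes under HT-DNA, 1287 to 1363 at rest, and 2092 to 2540 and 1864 to 2299 for the interaction. The highest and the lowest of these interaction values came without *Cgas*-/- HT-DNA replicate 1. RLE scaling gave an interaction split of 2546 and 2064, DESeq2 of 2537 and 2007, and a fit of only the compared groups of 2732 and 1873. With the replicate number as a block, 1623 genes were lower and 848 higher under HT-DNA, 2253 and 2360 passed the interaction, and 1346 differed at rest. Over all tested genes, same-numbered HT-DNA libraries did not deviate together (r = 0.001, 0.006 and 0.006), so the numbers were not taken as pairs. Of 1349 values of 123 named genes under the alternatives, 25 lost their call and 0 changed direction. All 123 were called in the main fit, many of them chosen for large changes there. A call could thus be lost but not gained, and a change of direction was unlikely from the start.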
